A study of Homo sapiens with 6 samples.

Results

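Simple keratins and hair-type keratins were followed as a set of 9 genes, KRT7, KRT8, KRT18, KRT19, KRT23, KRT80, KRT81, KRT83 and KRT86, out of 29816 genes in the deposited expression table. The set was selected on the FPKM of KRT81, which fell in these libraries. KRT83 and KRT86 are its near-identical relatives, and the other members are less alike. The levels below thus describe the contrast that chose the set and are given without p-values. A row was found for 8 of the 9, and KRT23 was not analysed here. The table held 0 genes with 0 reads in all libraries, so a missing row may mean that no read was assigned. RNA came from KYSE-150, an established line of human esophageal squamous cell carcinoma. It was sequenced from 3 libraries transfected with si-NC, a negative control small interfering RNA, and 3 libraries transfected with si-circTMEM45A, a small interfering RNA named for a circular RNA of the TMEM45A gene. The labels name no dose or time after transfection and do not say that replicates were separate cultures, so p-values measure the spread between libraries alone, possibly a technical one. One line stands for the tumour type here, and in bulk RNA fewer expressing cells and less RNA per cell cannot be told apart.

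Keratins are the intermediate filament proteins of epithelia, and each filament is built from pairs of 1 type I and 1 type II chain. KRT8 (type II) and KRT18 (type I) form the pair of simple, single-layered epithelia, where KRT7 and KRT19 often join them, while squamous epithelium rests on KRT5 with KRT14 or KRT15. KRT81, KRT83 and KRT86 are type II keratins of the hair shaft, where cysteine-rich chains are cross-linked by disulfide bonds. Hair keratins are also found in some carcinomas. KRT80 is a type II keratin that is broadly present in epithelia.

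KRT81, on which the set was chosen, has close copies in KRT86 and KRT83. Over their aligned coding bases, KRT81 and KRT86 were 94.2% identical, with 85 mismatches in 1454 bases and an unbroken identical run of 605 bases. KRT81 and KRT83 were 93.5% identical, with a longest identical run of 95 bases. For comparison, KRT7 and KRT8 were 76.0% identical and KRT8 and KRT18 were 65.1% identical. The sequences below are coding bases of the main GENCODE 29 transcripts (GRCh38), 60 bases each. The first set is the aligned stretch in which KRT86 and KRT83 differed most from KRT81, shown because reads there can be told apart. Capitals in the KRT86 and KRT83 lines mark bases that differ from KRT81, and capitals in the KRT81 line mark positions where either relative differs. KRT86 had 14 differences there and KRT83 had 7.

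KRT81, coding bases 1249 to 1308: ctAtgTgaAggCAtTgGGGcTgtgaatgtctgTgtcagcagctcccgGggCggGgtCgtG
KRT86, coding bases 1249 to 1308: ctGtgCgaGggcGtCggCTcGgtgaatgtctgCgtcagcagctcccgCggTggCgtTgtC
KRT83, coding bases 1264 to 1323: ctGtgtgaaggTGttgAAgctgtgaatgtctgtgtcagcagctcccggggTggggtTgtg

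The second set is a stretch with 0 differences, shown because a read that lies within it fits each of the 3 genes equally well.

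KRT81, coding bases 223 to 282: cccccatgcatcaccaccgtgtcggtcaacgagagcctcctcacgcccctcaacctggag
KRT86, coding bases 223 to 282: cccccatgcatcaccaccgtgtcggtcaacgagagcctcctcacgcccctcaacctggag
KRT83, coding bases 238 to 297: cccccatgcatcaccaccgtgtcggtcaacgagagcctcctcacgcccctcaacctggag

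Across whole transcripts, counting matches on either strand, 44.6% of 50-base stretches of KRT81 were also found in another gene, and 25.6% of its 150-base stretches were. All of the shared 150-base stretches of KRT81 lay in KRT86, where they made up 22.1% of that transcript. KRT83 shared 12.8% of its 50-base stretches and 0% of its 100-base stretches. KRT18 shared 47.6% at 50 bases, with KRT8, which overlaps it, and with its many pseudogenes. KRT80 was the most distinct member, with 0.42% shared at 50 bases. How the authors' counting treated reads with several matches is not given in the sources used here, so the values of KRT81, KRT83 and KRT86 are uncertain one by one.

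**Figure D1:**
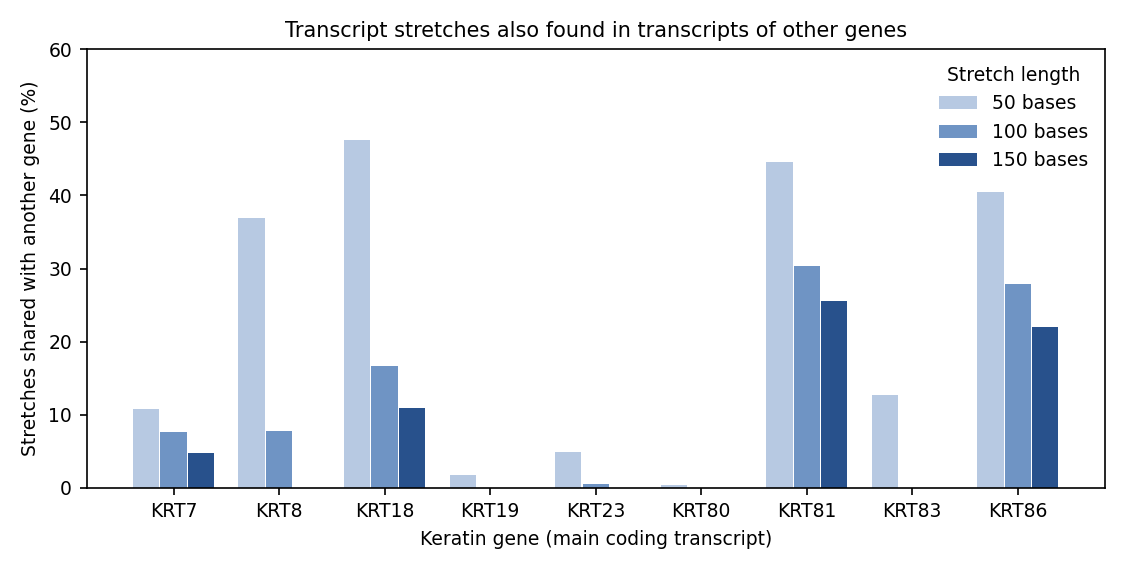
Percent of all 50-, 100- and 150-base stretches of each keratin's main coding transcript (y axis) that also occur in a transcript of another GENCODE 29 gene, for the 9 keratins (x axis). KRT81 and KRT86 keep shares of 25.6% and 22.1% at 150 bases, and KRT18 and KRT7 keep 11.0% and 4.80%. KRT8, KRT19, KRT23, KRT80 and KRT83 are at 0% at that length.

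The line expressed the simple pair strongly, and the other members spanned a wide range below it. Levels are FPKM, fragments scaled to exon length and library size, where the exon length is the union of all annotated exons of the gene. By mean FPKM over the 6 libraries, KRT8 ranked 41 among the 29816 genes, KRT18 ranked 63, KRT80 ranked 799 and KRT81 ranked 6290. KRT86, KRT7, KRT19 and KRT83 ranked 15186, 16207, 18600 and 23979. In both groups the libraries of KRT8, KRT18, KRT80 and KRT81 did not overlap with those of the next gene in this order. Below them, KRT86 and KRT7 did not overlap with si-NC but overlapped with si-circTMEM45A, and both KRT7 and KRT19, and KRT19 and KRT83, overlapped with si-NC and not with si-circTMEM45A. The order of KRT86 and KRT7 depends on the length used: per main transcript length, 1754 bases for KRT7 against 4093 in the union, KRT7 was at 0.713 ± 0.317 and 0.801 ± 0.251 reads per kilobase scaled to library size and KRT86 at 0.609 ± 0.177 and 0.316 ± 0.120 (SD, n = 3; si-NC, then si-circTMEM45A).

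**Figure D2:**
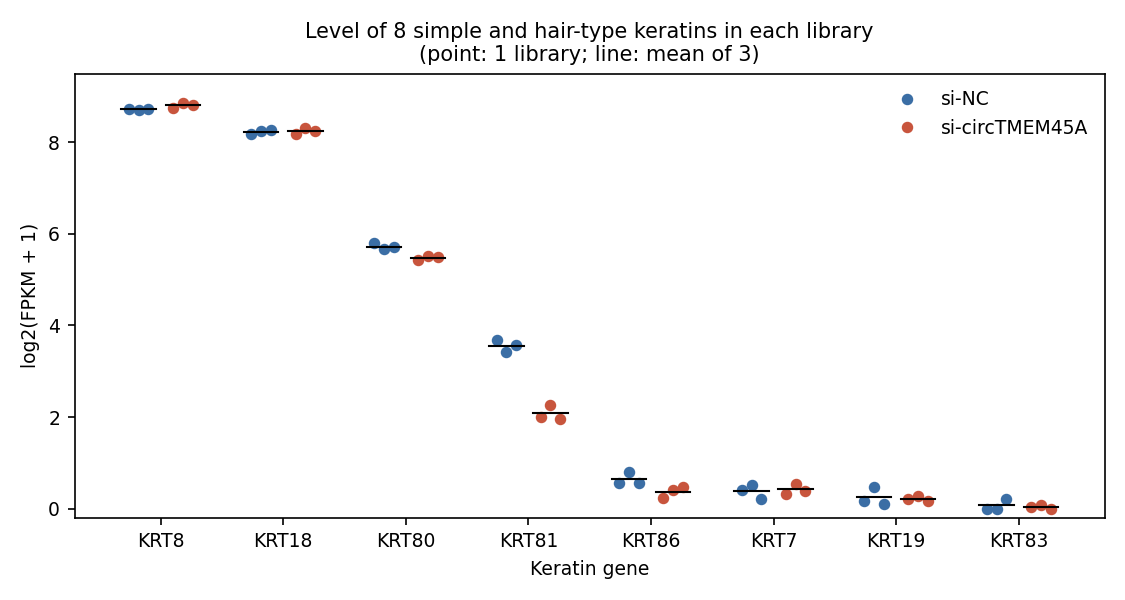
Level of 8 keratins (x axis) as log2(FPKM + 1) (y axis), where each point is 1 library and each line is the mean of 3 libraries on that scale. The 3 si-circTMEM45A points of KRT81 lie below its 3 si-NC points, while those of KRT18 lie among them.

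The test across genes was limma on log2(FPKM + 1), with genes kept where at least 3 libraries reached an FPKM of 1. It called 2380 of 12676 tested genes (18.8%) at an adjusted p below 0.05, of which 1411 (11.1%) were higher and 969 (7.64%) lower with si-circTMEM45A. Of the 8 members with values, 4 passed the filter, namely KRT8, KRT18, KRT80 and KRT81. KRT81 and KRT80 were called lower. limma called 0 members higher, while 1, KRT8, was higher at an unadjusted p below 0.05 and was called by limma voom. Library values did not overlap between groups for KRT8, KRT80 and KRT81, beside 39.2% of all tested genes. Because KRT81 put the set together, nothing is read from these counts. The median log2 fold change of the 4 tested members was -0.11 and that of all tested genes 0.03.

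The hair keratin KRT81 (ENSG00000205426; chromosome 12, 52285913 to 52291534, minus strand) changed most. Its FPKM was 11.8, 9.63 and 10.9 in si-NC replicates 1 to 3 and 3.02, 3.81 and 2.90 in si-circTMEM45A replicates 1 to 3. The highest si-circTMEM45A library was thus far below the lowest si-NC library. The means were 10.8 ± 1.07 and 3.24 ± 0.49 (SD, n = 3), an FPKM ratio of 3.32. The log2 fold change was -1.47 ± 0.10 (SE), on the log2(FPKM + 1) scale, which understates changes of low genes. Multiplying FPKM by exon length and library total returned whole reads, and KRT81 had 383, 309 and 356 reads with si-NC and 100, 124 and 97 with si-circTMEM45A.

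KRT86 (ENSG00000170442; chromosome 12, 52249300 to 52309163, plus strand) is the closest relative of KRT81, whose gene lies within its span on the opposite strand with 0 shared exon bases. Its FPKM was 0.47, 0.75 and 0.47 with si-NC and 0.17, 0.32 and 0.39 with si-circTMEM45A. The groups did not overlap, but the gene was under the filter and was not tested. The reads behind these values were 19, 30 and 19 against 7, 13 and 16. Summed by group they gave 68 and 36 reads, a si-NC to si-circTMEM45A ratio per depth of 1.92 with a 95% interval of 1.27 to 2.97 (exact Clopper-Pearson, counting error only).

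KRT83 (ENSG00000170523; chromosome 12, 52314301 to 52321398, minus strand) was close to undetected. It had 0, 0 and 5 reads with si-NC and 1, 2 and 0 with si-circTMEM45A, an FPKM of at most 0.16. The ratio of the group sums was 1.70 with an interval of 0.33 to 10.9, so no difference was detectable at this depth.

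A sum over the 3 hair keratins does not depend on how reads were divided among them. It would change if reads with several matches were dropped, counted more than once or assigned to a gene outside the sum. KRT81 shared 9.04% of its 50-base stretches with the pseudogene KRT87P, against 6.22% with KRT83. KRT87P, not in the sum, had 16, 10 and 18 reads with si-NC and 13, 10 and 4 with si-circTMEM45A. The sum over the 3 hair keratins was 402, 339 and 380 reads with si-NC and 108, 139 and 113 with si-circTMEM45A, and the groups did not overlap. The means were 374 ± 32.0 and 120 ± 16.6 reads (SD, n = 3), a log2 ratio per depth of -1.66, and FPKM summed in place of reads gave -1.67. KRT81 held 93.4 ± 2.08% of the summed reads with si-NC and 89.2 ± 3.38% with si-circTMEM45A. KRT83 and KRT86 together had 24.3 ± 5.51 and 13.0 ± 4.36 reads.

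**Figure D3:**
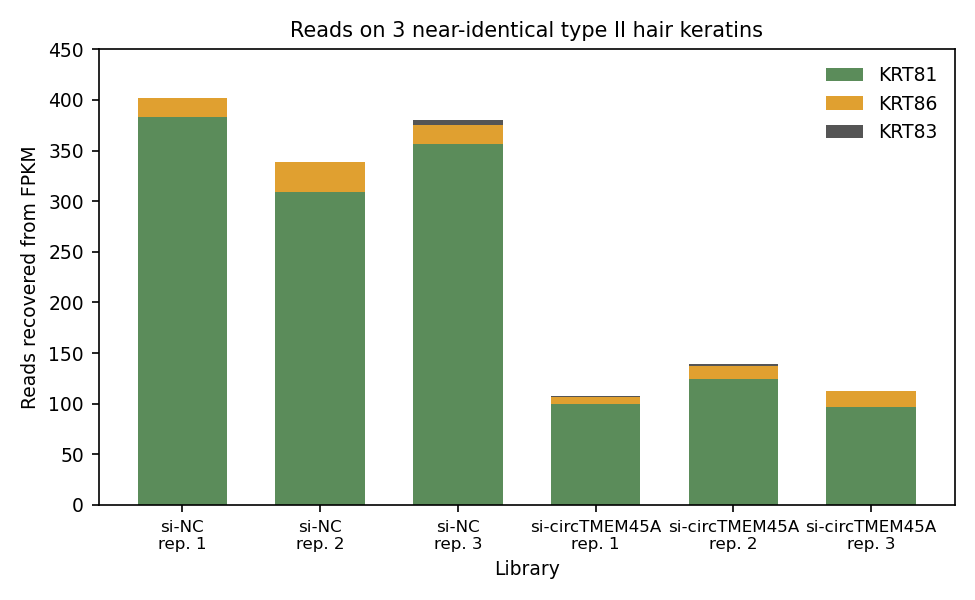
Reads recovered from FPKM (y axis) in each of the 6 libraries (x axis), stacked by gene for the near-identical hair keratins KRT81, KRT86 and KRT83. The 3 si-NC bars reach 402, 339 and 380 reads and the 3 si-circTMEM45A bars 108, 139 and 113, and KRT81 makes up most of each bar.

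KRT80 (ENSG00000167767; chromosome 12, 52168996 to 52192000, minus strand) fell by a small amount. Its FPKM was 54.4, 49.9 and 51.1 with si-NC and 42.2, 44.5 and 44.3 with si-circTMEM45A, and the groups did not overlap. The means were 51.8 ± 2.32 and 43.7 ± 1.28 (SD, n = 3), with a log2 fold change of -0.24 ± 0.04 (SE) and an FPKM ratio of 1.19. It rested on 3158 to 3997 reads per library. The ratio of KRT80 to KRT81 FPKM was 4.83 ± 0.30 with si-NC and 13.7 ± 1.82 with si-circTMEM45A.

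KRT8 (ENSG00000170421; chromosome 12, 52897187 to 52949954, minus strand) was not called. Its FPKM was 419.7, 417 and 424 with si-NC and 431, 461 and 449 with si-circTMEM45A. Each si-circTMEM45A library was above each si-NC library, the lowest of them by a narrow margin. The means were 420.3 ± 3.51 and 447 ± 15.1 (SD, n = 3), a log2 fold change of 0.087 ± 0.034 (SE).

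KRT18 (ENSG00000111057; chromosome 12, 52948871 to 52952901, plus strand) overlapped between the groups. Its FPKM was 287, 303 and 306 with si-NC and 287, 317 and 304 with si-circTMEM45A. The means were 298 ± 9.82 and 303 ± 15.1 (SD, n = 3), and the log2 fold change of 0.019 ± 0.046 (SE) was smaller than its error. The sign of that value changed under median-of-ratios scaling (-0.017) and on omitting replicate 1 of si-NC (-0.0082) or replicate 2 of si-circTMEM45A (-0.015).

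As KRT8 and KRT18 pair in filaments, their ratio was computed in each library. KRT8 over KRT18 in FPKM was 1.41 ± 0.05 with si-NC and 1.48 ± 0.02 with si-circTMEM45A (SD, n = 3). The groups overlapped, since the highest si-NC library was at 1.46 and the lowest si-circTMEM45A library at 1.45. The FPKM of these genes is divided by the union of all annotated exons, 6881 bases for KRT8 and 3218 for KRT18, whereas their main transcripts are 2126 and 1562 bases long. Per main transcript length the ratio was 2.21 ± 0.07 and 2.32 ± 0.04 (SD, n = 3). The exons of the 2 genes share 525 bases on opposite strands, 16.3% of the exon bases of KRT18, and whether strand was used in counting is not given in the sources used here.

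Few reads were assigned to pseudogene copies of this pair. Reads left out of counting because they matched several genes would not appear in these shares. The 18 pseudogenes of KRT8 with values held 0.455 ± 0.040% of the reads of KRT8 and its copies with si-NC and 0.548 ± 0.016% with si-circTMEM45A (SD, n = 3). The 24 pseudogenes of KRT18 held 0.180 ± 0.042% and 0.239 ± 0.052%. Of 43 pseudogenes of the simple keratins, 3 were tested, with a median log2 fold change of 0.04, and 1 was called higher. That was KRT8P12, at 3.58 ± 0.35 and 5.34 ± 0.27 FPKM (SD, n = 3; log2 fold change 0.47 ± 0.07, SE; limma adjusted p = 0.00658). With its pseudogenes added, KRT8 had a si-circTMEM45A to si-NC ratio of 1.06 and KRT18 of 1.01.

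The remaining simple keratins were barely present. KRT7 (ENSG00000135480; chromosome 12, 52232520 to 52252186, plus strand) had an FPKM of 0.33, 0.43 and 0.16 with si-NC and 0.26, 0.46 and 0.31 with si-circTMEM45A. KRT19 (ENSG00000171345; chromosome 17, 41523617 to 41528308, minus strand), a type I keratin, had 0.13, 0.39 and 0.08 against 0.15, 0.20 and 0.12. Both genes overlapped between the groups and were under the filter. The si-NC to si-circTMEM45A ratio of summed reads was 0.891 for KRT7 (63 and 72 reads; 95% interval 0.625 to 1.27) and 1.23 for KRT19 (23 and 19 reads; 0.642 to 2.39). KRT20, a simple keratin of gut epithelium, had 1 read in 1 library.

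Among all keratins these members took a larger share with si-circTMEM45A, and the groups did not overlap. The 8 members held 57.3, 58.6 and 56.2% of the FPKM of all keratin genes with si-NC and 64.0, 66.6 and 63.3% with si-circTMEM45A. Their share of all gene reads overlapped between groups, at 0.410 ± 0.004% and 0.425 ± 0.016% (SD, n = 3). KRT8 over KRT5 in FPKM was 1.17 ± 0.03 with si-NC and 1.88 ± 0.10 with si-circTMEM45A. The levels of this ratio and of the keratin shares depend on the exon length used, for KRT8 6881 bases against 2126 in its main transcript. KRT5, the type II keratin of basal squamous cells, fell from 359.6 ± 11.6 to 238 ± 10.6 FPKM (log2 fold change -0.60 ± 0.04, SE; limma adjusted p = 0.000768).

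Of 20 keratins of stratified epithelia, 6 were tested, with 1 higher, 3 lower and a median log2 fold change of -0.31. KRT14, the basal partner of KRT5, fell from 10.7 ± 0.57 to 6.47 ± 0.30 FPKM (limma adjusted p = 0.00121). KRT15, another basal type I keratin, fell from 111 ± 16.1 to 63.9 ± 9.68 FPKM (limma adjusted p = 0.00936). KRT17, a type I keratin of activated and basal cells, rose from 70.5 ± 4.28 to 98.7 ± 5.89 FPKM (limma adjusted p = 0.00331). KRT81 had the lowest log2 fold change of the 10 keratin genes above the filter.

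**Figure D4:**
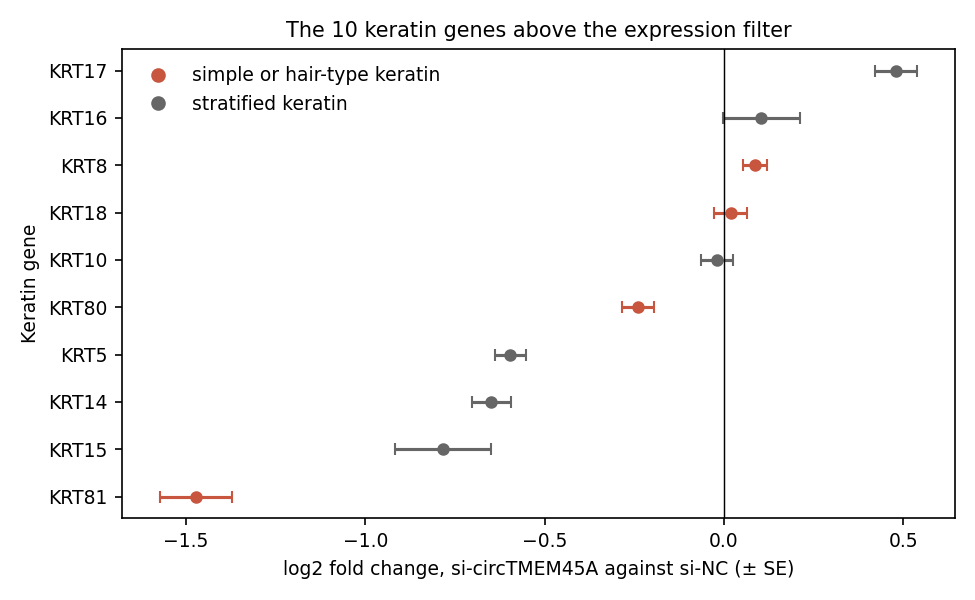
log2 fold change of si-circTMEM45A against si-NC (x axis, points with SE) for the 10 keratin genes above the expression filter (y axis). KRT81 lies at -1.47, KRT80 at -0.24, and KRT8 and KRT18 at 0.09 and 0.02, while KRT17 lies highest at 0.48.

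Of the neighbours of KRT81 in the type II keratin cluster, KRT80 and KRT5 were called lower by limma and 0 were called higher, with KRT8 called higher by limma voom alone. The cluster held 35 annotated keratin genes and pseudogenes, of which 17 had a value and 5 were tested. The start of KRT80 lies 99.5 kb from that of KRT81, and KRT5 lies 229 kb away on the other side. KRT18 and KRT8, at 657 and 658 kb, were not called. The protein-coding keratin genes with starts nearest to that of KRT81 were under the filter: KRT83 at 29.9 kb, KRT86 at 42.2 kb and KRT7 at 59.0 kb. KRT6A, a keratin of activated squamous cells at 202 kb, was also under the filter, with 45, 39 and 41 reads with si-NC and 9, 16 and 20 with si-circTMEM45A, and its groups did not overlap.

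**Figure D5:**
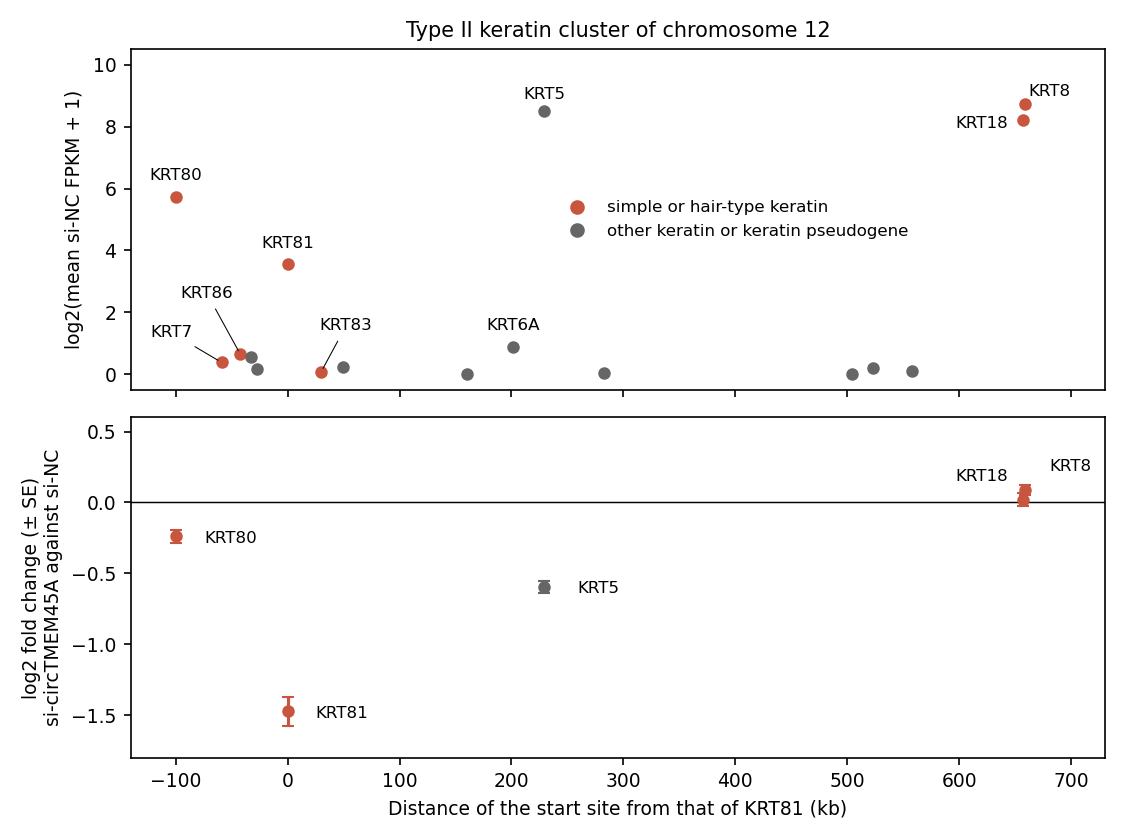
Keratin genes and pseudogenes of the chromosome 12 cluster by distance of their start site from that of KRT81 in kb (x axis). The upper panel gives log2(mean si-NC FPKM + 1) for 17 genes and the lower panel the log2 fold change with SE for the 5 tested genes, where KRT81 is lowest at -1.47 and KRT5, 229 kb away, lies at -0.60.

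The other hair keratins lay under the filter. Of 8 other type II hair keratins and related pseudogenes, 3 had values and 0 were tested, with a highest FPKM of 0.60. Of 11 type I hair keratins, the partners of KRT81 in hair, KRT32 and KRT34 had values and 0 were tested. KRT34 had 2, 6 and 1 reads with si-NC and 17, 3 and 10 with si-circTMEM45A. Of 21 transcription factors and signals of hair keratin genes, 12 were tested and limma called 0, while 4 were lower at an unadjusted p below 0.05 and limma voom called 2 lower, BMPR1A and NOTCH1. Their median log2 fold change was -0.06. HOXC13, a homeodomain factor that drives hair keratin genes, was at 9.15 ± 0.90 and 8.82 ± 0.38 FPKM, and CTNNB1, the WNT effector beta-catenin, at 24.8 ± 0.64 and 23.9 ± 0.92 (SD, n = 3).

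Of 30 transcription factors linked to simple keratin genes, 28 were tested, with 7 higher, 4 lower and a median log2 fold change of 0.05. JUN, a subunit of the AP-1 factor, was at 13.7 ± 0.97 FPKM with si-NC and rose to 25.2 ± 0.52 (SD, n = 3; log2 fold change 0.84; limma adjusted p = 0.000614). TP63, the regulator of squamous identity, fell from 27.8 ± 0.84 to 20.7 ± 1.79 FPKM (limma adjusted p = 0.0067). SP1 fell from 19.8 ± 0.16 to 16.2 ± 0.76 FPKM and the retinoic acid receptor RARG from 28.04 ± 0.82 to 22.4 ± 1.36 (limma adjusted p = 0.00761 and 0.00815), and the retinoid receptor RXRA was the fourth gene called lower. Besides JUN, the genes called higher were the retinoic acid receptor RARA, the AP-1 subunits FOSL1 and JUND, and GRHL1, TFAP2C and NR3C1. Retinoid receptors and the list as a whole thus went both ways. JUNB, the most abundant of the list, was not called, at 140.1 ± 8.63 and 140.6 ± 7.91 FPKM. The balance of this list depended on the scaling: it was 4 higher and 5 lower with median-of-ratios scaling, 3 and 5 with quantile normalization, 4 and 3 with TPM, and 3 and 5 with a replicate block. The 7 higher genes became 1 with no filter, 3 on omitting replicate 2 of si-NC, and 4, 2 and 3 on omitting replicates 1, 2 and 3 of si-circTMEM45A.

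Of 35 genes that anchor, modify or chaperone keratin filaments, 31 were tested, with 3 higher, 2 lower and a median log2 fold change of 0.04. The desmosomal cadherin DSG3 fell from 20.3 ± 0.32 to 13.97 ± 1.23 FPKM (limma adjusted p = 0.00322) and the desmosomal plaque protein PKP1 from 31.4 ± 1.10 to 25.7 ± 1.11 (limma adjusted p = 0.00807). The chaperone HSPA8 rose from 184 ± 13.4 to 221 ± 7.69 FPKM and plakoglobin, JUP, from 152 ± 8.19 to 179 ± 11.9 (limma adjusted p = 0.0181 and 0.0411). The call of HSPA8 was lost with no filter on low values (limma adjusted p = 0.0778) and on omitting replicate 3 of si-NC or replicate 2 of si-circTMEM45A (limma adjusted p = 0.057 and 0.0594), and that of JUP in 10 of 17 alternatives, up to a limma adjusted p of 0.141. PKP3, a desmosomal plaque protein, was also called higher. The 3 higher genes became 1 on omitting any 1 si-NC library, and 2, 0 and 1 on omitting replicates 1, 2 and 3 of si-circTMEM45A. SFN, the 14-3-3 protein that binds keratins, was the most abundant at 629 ± 47.6 and 552 ± 44.9 FPKM and was not called. Of 16 other intermediate filament genes, 4 were tested, with a median log2 fold change of -0.09. LMNA rose from 66.9 ± 2.54 to 81.3 ± 3.05 FPKM and LMNB1, also a nuclear lamin, fell from 65.3 ± 1.61 to 58.5 ± 0.37 (limma adjusted p = 0.00694 and 0.0185), the latter call being lost in 6 of 17 alternatives, among them the omission of replicate 1 or 2 of si-NC and of replicate 2 or 3 of si-circTMEM45A. LMNB2, the highest of them, was not called, at 115 ± 2.76 and 113 ± 5.76.

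The 5 genes whose pattern lay closest to KRT81 were sought among 11092 tested genes with a mean of at least 50 reads. The measure was the root mean square distance between log2(FPKM + 1) values centred on each gene's mean over the 6 libraries. They were SAA1 at 0.27, C1QL1 at 0.29, LOXL4 at 0.30, and IL1B and FST, both at 0.31, beside a spread of 0.75 of KRT81 around its own mean. The log2 fold changes of the 5 genes were -1.24 to -0.89. With 2 groups, the distance is small mainly for genes with a large fall, so the measure favours such genes. SAA1, an acute-phase protein that also has a near-identical relative, stood at 7.96, 8.31 and 8.15 FPKM with si-NC and 2.56, 2.38 and 3.77 with si-circTMEM45A. Of these candidates, 0 had a log2 fold change below that of KRT81, which ranked 5 from the most negative among all tested genes. The genes ranked before it had a mean under 50 reads and so were not candidates. As KRT81 was chosen for its fall, this rank describes the choice and nothing is read from it.

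Libraries held 16636248 to 17323964 gene-assigned reads, and correlations across genes were 0.985 to 0.988 within groups and 0.978 to 0.982 between them. TMEM45A, the host gene, was at 3.26, 2.90 and 3.19 FPKM with si-NC and 2.34, 1.91 and 2.11 with si-circTMEM45A (log2 fold change -0.40 ± 0.08, SE; limma adjusted p = 0.0167). Omitting replicate 1 or 3 of si-NC or replicate 3 of si-circTMEM45A ended that call (limma adjusted p = 0.057, 0.0548 and 0.0513), as did dropping the filter (limma adjusted p = 0.0614). Gene-level values from polyA RNA mostly count the linear transcript, and the circle was not measured. The label was checked against 15 squamous markers, of which 13 were tested and SOX2 and KRT6A were under the filter. Their summed FPKM was 1561 to 1709 with si-NC and 1361 to 1502 with si-circTMEM45A, with 2 called higher, KRT17 and LAMB3, 6 lower and 5 not called. SFN, which was not called, and KRT5 were the most abundant markers and made up much of the sum. The sum moved between the groups in the direction of KRT81 and KRT80, and its part in their values was not tested. Markers of columnar epithelium summed to 1.94 to 2.28 and 2.29 to 2.55 FPKM, mostly GATA6. Hair follicle markers, mostly HOXC13 and MSX2, summed to 13.6 to 15.8 and 12.7 to 14.5. Sums were 1.96 to 2.34 and 2.17 to 2.38 for fibroblasts, 0.66 to 1.30 and 0.65 to 0.91 for immune cells, and 0.79 to 1.17 and 1.07 to 1.41 for endothelium. PTPRC and PECAM1 had at most 2 reads in a library, while CD3E, which made up most of the immune sum, had 22 to 41 reads. CDH5 made up most of the endothelial sum, with 59 to 125 reads, and VWF had 13 to 40.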

How the data were processed

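Per the labels' protocols, polyA RNA was captured on oligo(dT) beads, and first-strand synthesis was randomly primed. The submitters' processing notes name HTSeq, StringTie 2.1.6, TopHat2, HISAT2 2.2.1 and cutadapt 1.9 with GRCh38, without their roles. The authors deposited FPKM for 29816 Ensembl genes, of which 29593 were given a symbol from the names table. FPKM multiplied by GENCODE 29 union exon length and a library total gave whole reads for 100% of values (tolerance 0.001), 16636248 to 17323964 per library. Reads of replicate libraries varied beyond counting noise, with a chi-square of 2.61 to 4.70 for each degree of freedom, so none was counted as a repeat.

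Genes reaching an FPKM of 1 in 3 or more libraries were tested with limma 3.58.1 (R 4.3.3) on log2(FPKM + 1), two-sided, with a variance trend and Benjamini-Hochberg adjustment over the 12676 tested genes at a threshold of 0.05. The script was tested on simulated data. The members, gene lists and alternatives were chosen with earlier results of these data known. Lists were described by counts and medians, with no test. Genes were named by a rule: the members, up to 4 called genes of smallest p and the most abundant gene of each list, the 5 genes nearest to KRT81, and TMEM45A. KRT20, RXRA, PKP3, LAMB3, BMPR1A, NOTCH1, KRT32, KRT34, MSX2, SOX2, KRT6A, PTPRC, PECAM1, CD3E, CDH5 and VWF were named outside it, after their values were seen. The same holds for KRT87P, RARA, FOSL1, JUND, GRHL1, TFAP2C and NR3C1. Shared stretches were counted between GENCODE 29 transcripts with Python 3.11.15, and coding sequences were aligned with Biopython 1.88. Alternatives were other pseudocounts, filters, scalings and variance models, limma voom on recovered reads, omission of each library in turn and a replicate block. Intervals of read ratios cover counting error only.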

Additional observations from a re-analysis of the deposited data

How the results depend on the processing

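KRT81 and KRT80 were called lower under each of the alternatives run, with log2 fold changes of -1.73 to -1.41 and -0.27 to -0.20. KRT8 was called higher by limma voom, so that 1 member was higher there in place of 0, and its adjusted p missed the threshold elsewhere. The log2 fold change of KRT18 was -0.017 with median-of-ratios scaling, 0.12 with quantile normalization (0.019 as reported), and between -0.015 and 0.056 on leaving out 1 library, with a negative sign without si-NC replicate 1 (-0.0082) and si-circTMEM45A replicate 2 (-0.015). The cause of these changes was not tested. With no filter on low values, which tests more genes, 728 genes were called higher and 526 lower. Leaving out 1 library, which leaves fewer samples, gave 786 to 1092 higher and 552 to 872 lower, with both counts moved by over 1.5 times by each library except si-circTMEM45A replicate 1. Median-of-ratios scaling gave 1022 higher and 1239 lower and quantile normalization 1122 and 1168, against 1411 and 969 as reported. The log2 ratio of summed KRT81, KRT83 and KRT86 reads was -1.79 to -1.59 on leaving out 1 library.

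Correlations of deviations were 0.03, 0.01 and 0.05 for equal replicate numbers and -0.05 to 0.02 for other pairs. Replicates 1 and 3 of si-NC correlated best with their own number, and si-NC replicate 2 with si-circTMEM45A replicate 1. Pairing could not be decided from values this small. With a replicate block, 1000 genes were called higher and 720 lower, KRT80 and KRT81 among the latter. Of 306 list counts compared, 276 stayed within 1.5 times the reported count and 30 moved. Among those that moved were the filament partners called higher (3 as reported, 10 with limma voom, 8 at an FPKM of at least 5). The lists of KRT20, other type II hair keratins and type I hair keratins had 0 tested genes as reported. Most of their counts could not move, so the 276 overstates stability. Depth limits KRT7, KRT19, KRT83 and KRT86, which had at most 32 reads in a library.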
